A study of Homo sapiens with 28 samples.

Results

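The transcription factor MYC, the long non-coding RNA PVT1 encoded next to it, and 8 genes of the MAX network were followed through RNA-seq of the SEM cell line, a human B-cell acute lymphoblastic leukemia line with an MLL-AF4 fusion. The 10 genes were taken by symbol from 57820 genes in the files: MYC, PVT1, MAX, MXD1, MXD3, MXD4, MXI1, MNT, MGA and MLX. All 10 passed the filter on low counts and were tested. The 28 libraries addressed how transcripts change when the architectural protein CTCF is removed by a degron, a tag that directs a protein to the proteasome once auxin is added.

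In the 24 h set, CTCF-AID2 cells, whose endogenous CTCF carries the tag and which constitutively express OsTIR1(F74G), were left without auxin (4 libraries) or given 1 µM 5-Ph-IAA by the sample title (4 libraries), although a treatment protocol in the labels names a higher dose. WT SEM cells, which the study's methods describe as lacking the degron, were sampled without IAA (2 libraries) and with IAA (2 libraries), an agent other than 5-Ph-IAA. A treatment protocol in the labels pairs IAA with doxycycline for these cells. The labels nevertheless describe CTCF as degraded in these WT libraries with IAA, against the methods, so each value given here for cells without the degron rests on the methods. In the 6 h set, lines labelled WT, DeltaZ1, DeltaZ10 and DeltaRBR (below the WT line, dZF1, dZF10 and dRBR) had 2 libraries without IAA and 2 with IAA for 6 h. By the study's methods all 4 derive from degron cells and carry an added, doxycycline-inducible CTCF that is full length in the WT line and otherwise lacks the first zinc finger, the tenth zinc finger or the region that binds RNA. The methods state that these lines were given 5-Ph-IAA, and doxycycline to induce the added CTCF, whereas the labels of these libraries name only IAA. Which of the libraries received doxycycline is not stated, so the presence of the added CTCF in each is not known. The labels also do not say whether replicates were separate cultures. P-values therefore reflect only how far these libraries differ, and that spread may be technical.

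MYC is a basic helix-loop-helix leucine zipper protein that binds DNA only as a heterodimer with MAX, chiefly at E-boxes, and raises transcription of genes for growth, ribosome production and metabolism. The MXD proteins (MXD1, MXD3, MXD4 and MXI1, also called MXD2) and MNT compete for MAX and recruit the SIN3 corepressor, and MGA brings MAX into a Polycomb complex. MLX is the partner that links the network to the glucose-sensing Mondo proteins. In B-cell leukemia, MYC is known to sustain proliferation, and PVT1 is known both as an RNA and as a stretch of DNA whose promoter and enhancers lie in the MYC domain.

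The canonical E-box, CACGTG, reads the same on both strands and is the site that MYC-MAX and MXD-MAX dimers share, so promoter sequences of members that hold it are shown here. RefSeq promoter windows of 250 bases before to 50 bases after a start site (GRCh38.p14) were at hand for 8 of the 10 members, in 13 windows, and 3 windows held the letters, against 7.256% of 35116 promoters of the same length. Capitals mark the E-box. They belong to MXD4 (chr4:2262315-2262359, minus strand, at -238 from the start site), MNT (chr17:2401221-2401280, minus strand, at -193) and MLX (chr17:42567023-42567082, plus strand, at -50).
MXD4: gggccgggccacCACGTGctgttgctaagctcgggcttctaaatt
MNT: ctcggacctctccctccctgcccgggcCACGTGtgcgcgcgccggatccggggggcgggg
MLX: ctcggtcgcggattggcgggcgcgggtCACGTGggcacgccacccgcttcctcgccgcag
A match describes the letters of the window and does not show binding.

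Libraries held 45.7 to 59.8 M counts in the 24 h set and 25.8 to 60.7 M in the 6 h set. All 8 B-lineage markers exceeded 1 TPM (RSEM's length-normalised abundance) in every library, whereas the summed erythroid markers reached at most 0.05 TPM. CD3D of T cells and DCN of stroma were at 0 in every library, and of those lists NKG7 and PDGFRB exceeded 1 TPM, as did the myeloid markers CSF1R and, at 24 h, LYZ. The CTCF transcript, which the degron does not target, ran from 143.5 to 150.9 CPM (counts scaled to library size) in untreated CTCF-AID2 cells and from 249.8 to 255.7 CPM with auxin, and an added CTCF would be counted with it. In the 24 h set 2.73 to 2.82% of genes had non-whole counts in WT libraries and 7.08 to 7.84% in CTCF-AID2 libraries, so line and processing cannot be told apart and levels of those lines are only set side by side. The 2 dZF1 libraries with auxin stood apart from each other: the median SD of log2 CPM over genes was 0.179 between them and 0.0427 to 0.0844 in every other group.

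Measured per length in TPM, MYC had the highest mean of the members in every group, and its range met that of MAX only in dZF1 with auxin. In the untreated WT line at 6 h its level was 58.1 ± 6.14 TPM (SD, n = 2), followed by MAX at 14.7 ± 0.721, PVT1 at 12.1 ± 0.962 and MLX at 11.6 ± 1.06 TPM. PVT1 and MLX overlapped in their ranges and MAX stood above both. Next came MGA at 9.24 TPM, MXD3 at 6.76, MXD4 at 3.37, MXI1 (2.32 to 2.68 over its libraries) and MNT at 1.94, and MXD1 was lowest at 0.525 ± 0.0778 TPM. The order depends on scaling by length: in CPM, the untreated WT line had MGA at a mean of 155 and MAX at 50.4. WT SEM cells with IAA had MGA at 189 CPM and MYC at 178 CPM. Whether the libraries cover whole transcripts or 3′ ends is not settled. Untreated CTCF-AID2 cells had MYC at 66.1 ± 6.55 TPM (n = 4), with MLX and PVT1, PVT1 and MGA, MGA and MXD3, and MXI1 and MNT as neighbours whose ranges overlapped. After 24 h of auxin the order in TPM changed at its second place, where MXD3 (18.0 ± 2.17 TPM) stood above MAX (14.4 ± 0.581 TPM) in all 4 libraries. In CPM their ranges overlapped, with MXD3 at 45.8 to 52.4 and MAX at 48.5 to 49.9.

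MYC (chr8:128747680-128755197, plus strand, GRCh37) was lower with auxin in all 5 degron lines. At 24 h its level in CTCF-AID2 cells was 334, 341, 344 and 347 CPM without auxin and 186, 192, 180 and 183 CPM with it. The 8 libraries fell into separate ranges, with a gap larger than the spread within either group. The log2 fold change was -0.88 ± 0.03 (SE, limma-voom, adjusted p = 1.73e-11), which leaves 0.542 of the untreated level, and 312 of 13973 genes had a lower value.

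The fall of MYC at 6 h was found in each of the 4 lines. The WT line had 302 and 297 CPM without auxin against 136 and 144 CPM with it. In dZF1 the values were 357 and 366 CPM against 115 and 124 CPM. The dZF10 line had 330 and 347 CPM against 138 and 159 CPM, and dRBR had 349 and 332 CPM against 170 and 169 CPM. The highest 6 h library with auxin was at 170 CPM and the lowest without it at 297 CPM. Fitted log2 fold changes were -1.10 ± 0.07 in the WT line (adjusted p = 6.61e-06), -1.598 ± 0.07 in dZF1 (7.71e-07), -1.19 ± 0.07 in dZF10 (1.87e-06) and -1.003 ± 0.07 in dRBR (1.89e-05, all limma-voom, SE). Their mean was -1.22 ± 0.04, and 64 of 13902 genes lay below it. Without both dZF1 auxin libraries, an alternative chosen after seeing the data, the mean over 3 lines was -1.09 ± 0.04.

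WT SEM cells without the degron showed a much smaller decrease: 204 and 195 CPM without IAA and 171 and 185 CPM with it. The groups did not overlap, and the log2 fold change was -0.16 ± 0.04 (adjusted p = 0.0205). This call was lost when WT replicate 1 was left out of either group (adjusted p = 0.148 and 0.146). The auxin effect differed between CTCF-AID2 and WT cells for 4 of 10 members, MYC, MXI1 and MXD1 lower and MXD3 higher, where 40.2% of all genes differed. The effect on MYC was lower in CTCF-AID2 cells by 0.72 ± 0.05 on the log2 scale (log2 difference -0.72, limma-voom interaction contrast, adjusted p = 1.58e-07). Line, agent and processing differ together between these 4 groups and cannot be told apart.

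**Figure D1:**
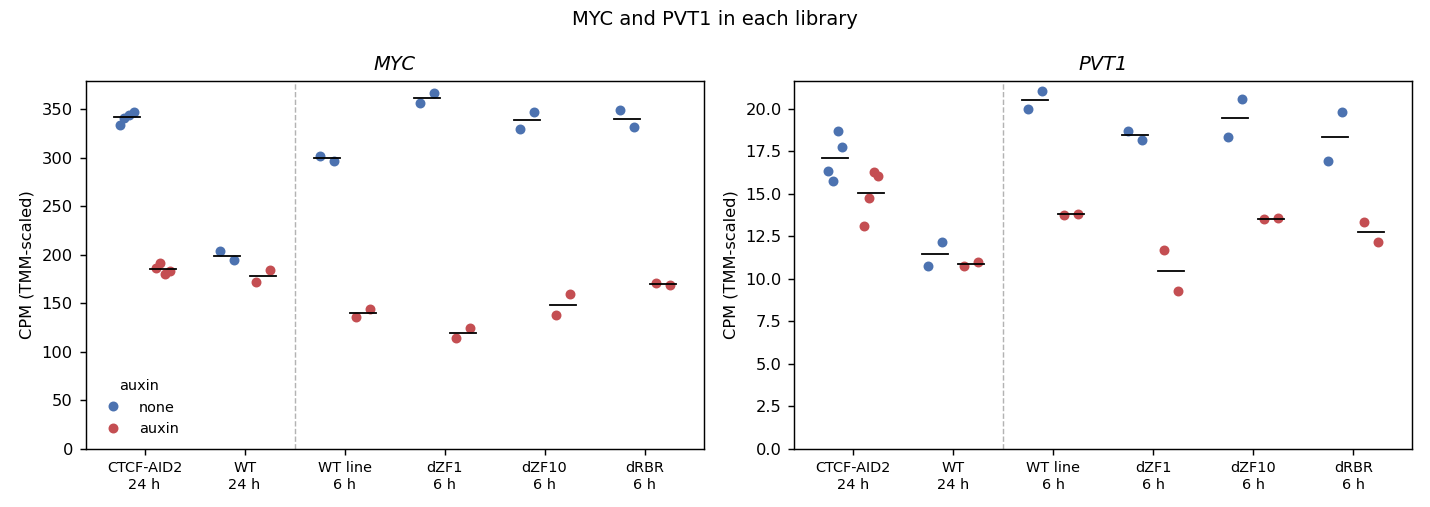
Each point is 1 library, with CPM on a linear axis from 0 and a black bar at the group mean. Blue marks libraries without auxin and red libraries with it, and the dashed line separates the 24 h from the 6 h set. All 12 MYC points with auxin in degron lines lie at or under 192 CPM, below the 12 without it.

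PVT1 (chr8:128806772-129199347, plus strand, GRCh37) starts 51575 bases after the end of MYC and is transcribed in the same direction. At 6 h it fell in all 4 lines, by a smaller factor than MYC in each fitted value. In the WT line it measured 20.0 and 21.0 CPM without auxin and 13.8 and 13.8 CPM with it. The dZF1 line gave 18.7 and 18.2 CPM against 11.7 and 9.29 CPM. Values in dZF10 were 18.3 and 20.6 CPM against 13.5 and 13.6 CPM, and in dRBR 16.9 and 19.8 CPM against 13.3 and 12.2 CPM. In no line did the 2 groups overlap. The log2 fold changes were -0.57 ± 0.11 (adjusted p = 0.00588), -0.83 ± 0.11 (0.000354), -0.53 ± 0.11 (0.00564) and -0.54 ± 0.11 (0.0104) in the order above (SE, limma-voom), with a mean of -0.62 ± 0.06 and 563 of 13902 genes below it. Leaving out 1 library of the line compared ended the call in the WT line, dZF10 and dRBR in at least 1 case, with adjusted p-values up to 0.109.

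At 24 h PVT1 in CTCF-AID2 cells lay at 16.3, 15.7, 18.7 and 17.8 CPM without auxin and at 13.1, 14.7, 16.3 and 16.1 CPM with it. These ranges overlapped. The log2 fold change of -0.19 ± 0.07 passed narrowly (adjusted p = 0.0346) and no longer passed without auxin replicate 1 or 2 or untreated replicate 3 or 4 (adjusted p = 0.0717 to 0.106). In WT cells PVT1 measured 10.8 and 12.1 CPM without IAA and 10.8 and 11.005 CPM with it, a log2 fold change of -0.07 ± 0.12 that did not pass (adjusted p = 0.745). The difference between the lines was -0.12, with a 95% interval of -0.42 to 0.18. The 6 h and 24 h values come from different lines and separate fits, so the smaller PVT1 value at 24 h was not tested against that at 6 h.

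Of all genes with a mean of at least 10 CPM in both sets and not named after a clone (8996), those nearest to MYC in their 6 auxin effects were MACROD1, which removes ADP-ribose from proteins, AK4, a mitochondrial adenylate kinase, DERL3, of endoplasmic reticulum protein degradation, PRICKLE1 and RNF24. Their root mean square distances on the log2 scale ran from 0.212 for MACROD1 to 0.299 for RNF24. Closest to PVT1 were NAV1 at 0.0751, LSP1, an actin-binding protein of leukocytes, FOXK1, a forkhead factor, GID4, a ubiquitin ligase receptor, and RRP7B at 0.0978. No gene compared was as near to MYC as these 5 were to PVT1. RRP7B has a near-identical copy and its counts are uncertain.

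Among the 10 members, 2 rose and 6 fell in CTCF-AID2 cells at 24 h, where 29.2% of all 13973 genes rose and 29.5% fell. The mean effect at 6 h passed for 2 rises and 4 falls, against 25.1% and 26.4% of 13902 genes. With IAA, 3 members rose and 1 fell in WT SEM cells (9.34% and 9.55% of genes). In the WT line 0 rose and 3 fell (6.45% and 7.21%), in dZF1 1 rose and 3 fell (17.1% and 16.4%), in dZF10 2 rose and 3 fell (8.88% and 9.24%), and in dRBR 1 rose and 3 fell (4.81% and 5.68%), all by limma-voom at an adjusted p of at most 0.05. The 0 rises in the WT line became 1, MXD1, by limma-voom with the groups compared alone, where 3462 of 13550 genes passed. In dZF1 that fit called 0 of the 10 members, MYC included (adjusted p = 0.0675), and 2 of all 13565 genes. The median log2 fold change of the members was -0.14 in CTCF-AID2 cells and -0.09 in the 6 h mean, against -0.002 and -0.010 over all genes. Left without 1 library, the count in WT SEM cells fell from 4 to 1 or 2 for each of its 4 libraries, that in dZF10 from 5 to 2 without untreated replicate 2, and that in dRBR from 4 to 1 without auxin replicate 2 and to 2 without either untreated replicate.

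**Figure D2:**
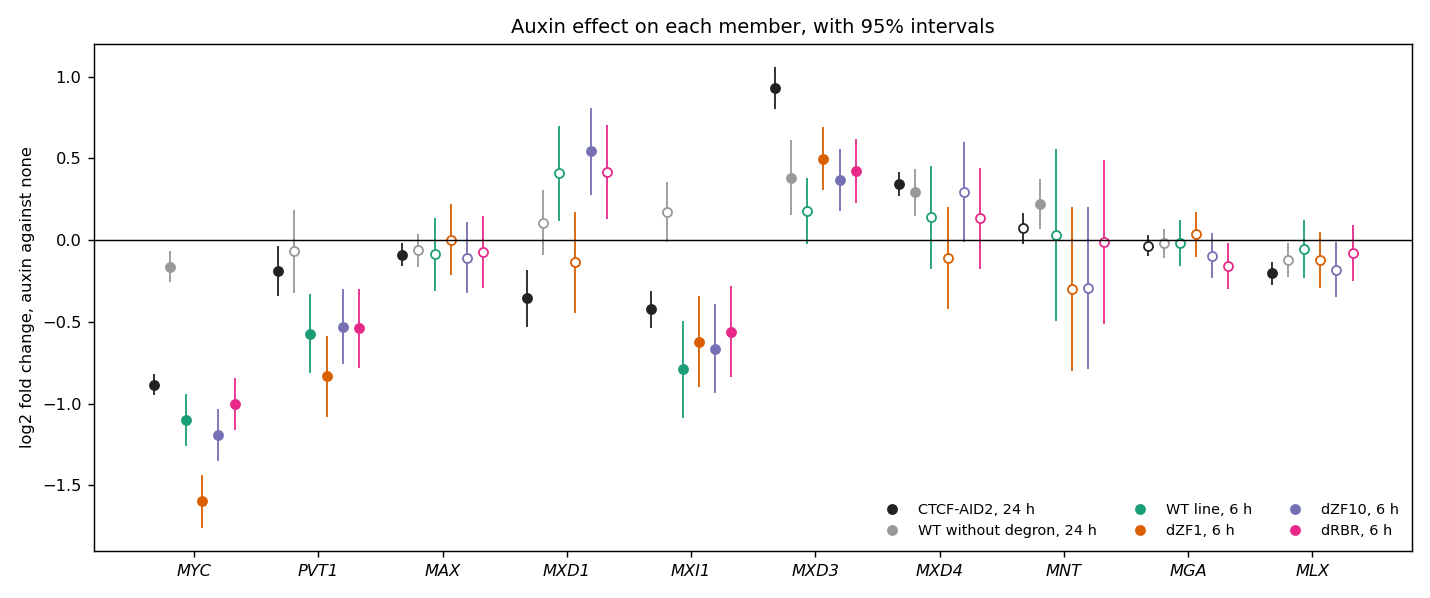
The vertical axis is the fitted log2 fold change of auxin against none for each member (horizontal axis), with bars for the 95% interval and 1 colour per line and time. Filled points passed an adjusted p of 0.05 and open points did not. MYC, PVT1 and MXI1 lie below 0 in all 5 degron lines, MXD3 lies above 0 in all 6 contrasts, and MXD1 is below 0 in CTCF-AID2 cells and dZF1 and above 0 in the other 4 contrasts.

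MAX, the shared dimer partner (chr14:65472892-65569413, minus strand, GRCh37), changed little. It ran from 50.5 to 54.7 CPM in untreated CTCF-AID2 cells and from 48.5 to 49.9 CPM with auxin, a log2 fold change of -0.09 ± 0.03 (adjusted p = 0.0302) that was lost without auxin replicate 3 (adjusted p = 0.0596). At 6 h the mean effect was -0.07 ± 0.05 and did not pass (adjusted p = 0.297). The 2 dZF1 auxin libraries were at 45.3 and 59.6 CPM, on either side of the untreated 51.0 and 53.3 CPM. Without both of them the mean was -0.08 ± 0.03 (adjusted p = 0.0361). MAX overlaps FNTB on the opposite strand, and FNTB fell by 0.34 on the log2 scale in CTCF-AID2 cells and by 0.29 in the 6 h mean. The value of MAX is uncertain because the use of strand in counting is not stated.

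The MXD repressors did not move as a group. MXI1 (chr10:111967363-112047123, plus strand, GRCh37) fell, MXD3 rose, MXD4 rose at 24 h, and MXD1 fell in CTCF-AID2 cells and rose in the 6 h mean. MXI1 was at 10.6, 11.02, 10.3 and 11.6 CPM in untreated CTCF-AID2 cells and at 8.54, 7.85, 8.40 and 7.78 CPM with auxin. All libraries with auxin lay below all without it, and the log2 fold change was -0.42 ± 0.05 (adjusted p = 9.57e-06). At 6 h the WT line had 13.4 and 12.9 CPM against 7.73 and 7.50 CPM, and dZF1 12.8 and 14.0 against 7.77 and 9.59 CPM. The dZF10 line had 13.02 and 12.4 CPM against 8.99 and 7.28 CPM, and dRBR 14.8 and 12.9 against 9.99 and 8.60 CPM. The groups were separate in every line, with log2 fold changes of -0.79, -0.62, -0.66 and -0.56 (SE 0.13 to 0.14, adjusted p = 0.00305 to 0.0168) and a mean of -0.66 ± 0.06. The call was lost in dZF10 without auxin replicate 2 (adjusted p = 0.056) and in dRBR without untreated replicate 1 or auxin replicate 2 (adjusted p = 0.11 and 0.145). In WT SEM cells MXI1 was instead 6.84 and 6.61 CPM without IAA and 7.66 and 7.51 CPM with it (log2 fold change 0.17 ± 0.09, adjusted p = 0.186). The effects in CTCF-AID2 and WT cells differed by -0.59 ± 0.10 (adjusted p = 0.000359).

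MXD3 (chr5:176728462-176739758, minus strand, GRCh37), a repressor known for expression in cycling cells, had the largest rise of the members in CTCF-AID2 cells. Untreated CTCF-AID2 libraries held 25.2, 23.7, 26.7 and 25.7 CPM and those with auxin 45.8, 52.4, 45.8 and 49.4 CPM. The ranges did not meet, and the log2 fold change was 0.93 ± 0.06 (adjusted p = 1.13e-08), with 303 of 13973 genes above it. WT SEM cells had 14.4 and 13.04 CPM without IAA and 16.1 and 19.7 CPM with it, a log2 fold change of 0.38 ± 0.11 (adjusted p = 0.0237), and the effect in CTCF-AID2 cells exceeded it by 0.55 ± 0.12 (adjusted p = 0.00282). The WT call was lost when either untreated WT library or auxin replicate 2 was left out (adjusted p = 0.0643, 0.157 and 0.282). At 6 h MXD3 rose in dZF1 from 21.0 and 22.6 to 32.7 and 29.2 CPM, in dZF10 from 20.0 and 21.2 to 28.6 and 25.2 CPM, and in dRBR from 21.0 and 20.5 to 28.4 and 27.1 CPM. In the WT line it was 22.0 and 19.8 CPM without and 23.9 and 23.4 CPM with auxin, and did not pass (log2 fold change 0.18 ± 0.09, adjusted p = 0.237). Leaving out any 1 of their own libraries ended the call in dRBR (adjusted p = 0.059 to 0.0934), and in dZF10 it was lost without either untreated library or auxin replicate 1 (adjusted p = 0.0592 to 0.097). The mean was 0.37 ± 0.04 (adjusted p = 3.86e-05). MXD3 overlaps RAB24 on the same strand, and its counts were not whole in 26 of 28 libraries, so reads may be divided between them: RAB24 rose by 0.28 in CTCF-AID2 cells and by 0.24 in the 6 h mean (log2, adjusted p = 0.000146 and 0.00138). On the opposite strand MXD3 overlaps PRELID1, which ran from 99.0 to 127 CPM. PRELID1 changed by -0.16 in CTCF-AID2 cells and by 0.10 in the 6 h mean (limma-voom, adjusted p = 0.00974 and 0.0826).

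MXD1 (chr2:70124820-70170077, plus strand, GRCh37), a repressor that rises in differentiating cells, was the least abundant member. In CTCF-AID2 cells it measured 4.14, 3.62, 4.24 and 4.4993 CPM without auxin and 3.28, 3.36, 3.20 and 3.02 CPM with it. It was lower with auxin in every library, with a log2 fold change of -0.36 ± 0.08 (adjusted p = 0.00163). At 6 h it was higher with auxin in 3 lines: 6.00 and 6.13 against 7.82 and 8.26 CPM in the WT line, 5.93 and 5.15 against 7.07 and 8.72 CPM in dZF10, and 5.17 and 5.35 against 7.03 and 7.09 CPM in dRBR. In dZF1 it was 4.98 and 4.81 CPM without and 5.02 and 4.02 CPM with auxin, where the ranges overlapped. The change passed in dZF10 (0.54 ± 0.12, adjusted p = 0.0103) and in the mean (0.31 ± 0.07, adjusted p = 0.00222), and not in the WT line (0.41 ± 0.13, adjusted p = 0.0635) or dRBR (0.42 ± 0.13, adjusted p = 0.0668). Without both dZF1 auxin libraries it passed in all 3 other lines, with a mean of 0.46 ± 0.07. The dZF10 call was lost without untreated replicate 2 or auxin replicate 2 (adjusted p = 0.147 and 0.102). MXD1 shares its strand with the overlapping SNRNP27, whose own changes were -0.12 in CTCF-AID2 cells (adjusted p = 0.134) and 0.16 in the 6 h mean (adjusted p = 0.0423). Without the degron MXD1 had a log2 fold change of 0.11 ± 0.09 (adjusted p = 0.459), and the effects of CTCF-AID2 and WT cells differed by -0.46 ± 0.12 (adjusted p = 0.00802).

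MXD4 (chr4:2249159-2263836, minus strand, GRCh37) is a repressor whose promoter window holds the E-box shown above. It had 21.4, 21.4, 22.0 and 22.0 CPM in untreated CTCF-AID2 cells and 27.5, 28.1, 27.4 and 27.1 CPM with auxin. The groups were far apart for their spread, and the log2 fold change was 0.34 ± 0.03 (adjusted p = 9.65e-07). WT SEM cells had 9.32 and 8.87 CPM without IAA and 10.7 and 11.6 CPM with it, a rise of 0.29 ± 0.07 (adjusted p = 0.00759) that was lost without replicate 2 of either group (adjusted p = 0.0651 and 0.105). The rise was of similar size with and without the degron: the difference was 0.05, with a 95% interval of -0.11 to 0.21. At 6 h MXD4 ran from 24.8 to 31.3 CPM without auxin and from 20.6 to 33.1 CPM with it, and no line passed. The mean of 0.12 ± 0.07 did not pass (adjusted p = 0.194), whereas without both dZF1 auxin libraries, at 30.0 and 20.6 CPM, it was 0.20 ± 0.05 (adjusted p = 0.00611).

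**Figure D3:**
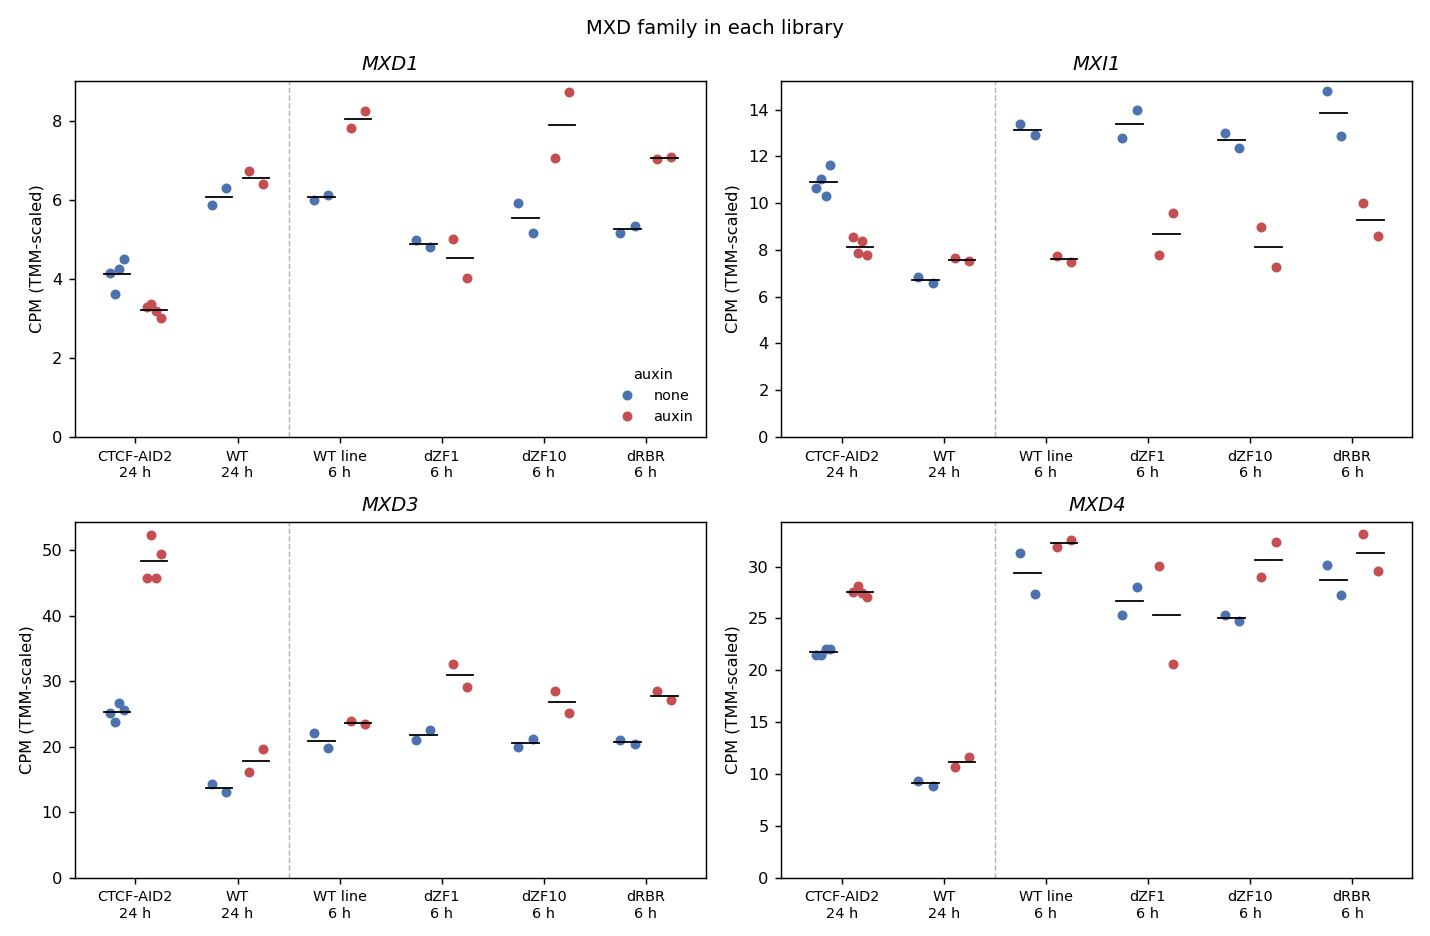
CPM values of the 4 MXD repressors are plotted for each library on linear axes from 0, with black bars at group means, blue for no auxin and red for auxin. In CTCF-AID2 cells MXD1 and MXI1 lie lower and MXD3 and MXD4 higher with auxin, with no overlap of the 4 and 4 points.

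The other members were MNT, MGA and MLX. MNT (chr17:2287367-2304398, minus strand, GRCh37), a repressor expressed in most cells, ranged from 12.5 to 13.6 CPM in untreated CTCF-AID2 cells and from 13.5 to 14.1 CPM with auxin (log2 fold change 0.07 ± 0.04, adjusted p = 0.18). It passed in WT SEM cells, at 9.51 and 10.6 CPM without IAA and 11.5 and 11.9 CPM with it (0.22 ± 0.07, adjusted p = 0.0439), a call that DESeq2 did not make (adjusted p = 0.082) and that was lost without untreated replicate 2 or either library with IAA (adjusted p = 0.0677 to 0.292). At 6 h its mean effect was -0.14 ± 0.12 (adjusted p = 0.323), and the 2 dZF1 auxin libraries lay at 18.8 and 9.79 CPM. MGA (chr15:41913332-42065279, plus strand, GRCh37), the scaffold that joins MAX to a Polycomb complex, had a log2 fold change of -0.03 ± 0.03 in CTCF-AID2 cells (95% interval -0.09 to 0.03) and of -0.06 ± 0.03 in the 6 h mean. MLX (chr17:40719090-40725257, plus strand, GRCh37) ran from 44.2 to 46.3 CPM in untreated CTCF-AID2 cells and from 37.2 to 40.6 CPM with auxin, a fall of -0.20 ± 0.03 (adjusted p = 0.000118). In WT SEM cells MLX had a log2 fold change of -0.12 ± 0.05 that did not pass (limma-voom, adjusted p = 0.0982). The difference between CTCF-AID2 and WT cells was -0.08, with a 95% interval of -0.21 to 0.04. The 6 h mean of MLX, -0.11 ± 0.04, passed narrowly (adjusted p = 0.0359). It did not pass on leaving out any 1 of 12 of the 16 libraries in turn (adjusted p = 0.0531 to 0.0892), with no filter (adjusted p = 0.195) or without both dZF1 auxin libraries (adjusted p = 0.0713). PSMC3IP, which overlaps MLX on the opposite strand, rose by 0.12 in CTCF-AID2 cells (adjusted p = 0.013), so the 2 counts moved in opposite directions.

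At 6 h the auxin effect in each deletion line was compared with that in the WT line. The presence of the added CTCF in these libraries is not known. The differences are therefore between lines and do not measure the effect of a deletion. By limma-voom 0 of 10 members passed for dZF1, dZF10 or dRBR minus the WT line, where 0.331%, 0.0432% and 0.0% of 13902 genes passed. At an unadjusted p under 0.05 there were 3 members for dZF1, 0 for dZF10 and 0 for dRBR, against 17.3%, 2.82% and 2.52% of all genes. edgeR called 0 members in each, and DESeq2 called 1, MYC in dZF1. The MYC effect in dZF1 was lower than in the WT line by 0.50 ± 0.10 on the log2 scale (log2 difference -0.50, 95% interval -0.73 to -0.27, adjusted p = 0.0708). With DESeq2 the difference was -0.50 (adjusted p = 0.00157). By limma-voom with only the groups compared, 0 of 10 members and 0 of 13750 genes passed. The MYC difference was -0.45 without dZF1 auxin replicate 1 and -0.56 without replicate 2. These 2 fits leave 1 library in that group and drop the spread between its libraries, so their calls are not read here. For dZF10 the MYC difference was -0.09, with an interval of -0.32 to 0.14, and for dRBR 0.10, with an interval of -0.13 to 0.32. The PVT1 differences were -0.26, 0.04 and 0.03 for dZF1, dZF10 and dRBR, with intervals that reached from -0.61 to 0.38.

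Without auxin, 0 of 10 members passed in limma-voom between each deletion line and the WT line, and 0.0% of genes did in each. An unadjusted p under 0.05 was found for 516, 580 and 715 genes for dZF1, dZF10 and dRBR, which is 3.71%, 4.17% and 5.14% of those tested, where 5.0% is the share if nothing differed. edgeR called 0 genes in each, and DESeq2 called 16, 1 and 15, of which 0 were members. MYC was the member with an unadjusted p under 0.05, with log2 differences of 0.27, 0.18 and 0.18 above the WT line and adjusted p-values of 0.871, 1.0 and 0.958. The 3 comparisons share the untreated WT libraries, as do the 3 differences above.

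Since MYC and its antagonists share MAX, the ratio of MYC to the summed level of the 6 repressive partners (MXD1, MXD3, MXD4, MXI1, MNT and MGA) was taken per library in TPM, as a description without a test. It was 2.55 to 2.81 in untreated CTCF-AID2 cells and 1.06 to 1.14 with auxin. In the WT line at 6 h it went from 2.35 to 2.42 without auxin to 1.10 to 1.14 with it, and in dZF1 from 2.92 to 2.95 down to 0.806 to 0.880. The dZF10 line had 2.65 to 2.80 against 1.05 to 1.20, and dRBR 2.64 to 2.65 against 1.28 to 1.34. WT SEM cells had 2.01 to 2.02 without IAA and 1.53 to 1.604 with it. The summed partners covered 22.3 to 25.9 TPM without auxin and 33.0 to 38.4 TPM with it in CTCF-AID2 cells, where MXD3, whose counts are uncertain, had means of 8.62 and 18.0 TPM, while in the WT line they covered 22.9 to 25.8 and 21.5 to 27.7 TPM. The size of this ratio depends on scaling by length, and whether the libraries cover whole transcripts or 3′ ends is not settled. In bulk RNA, fewer cells with a transcript and less of it per cell cannot be told apart.

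Of 19 listed 8q24 neighbours of MYC and PVT1, 8 were tested, and they moved in both directions. In CTCF-AID2 cells 4 of the 8 rose and 2 fell, with a median of 0.20, where 29.2% of all genes rose and 29.5% fell. The 2 largest rises were at the far side of PVT1: FAM49B, a regulator of actin remodelling 2.10 Mb from the MYC start, rose by 1.35 ± 0.04, and ASAP1, an ARF GTPase-activating protein at 2.32 Mb, rose by 1.52 ± 0.06 (log2, SE, adjusted p = 1.43e-12 and 3.24e-11). In WT SEM cells their values were -0.11 (adjusted p = 0.147) and -0.47 (adjusted p = 0.00214), and in the 6 h mean 0.43 (adjusted p = 8.17e-05) and -0.01 (adjusted p = 0.928). By line at 6 h, FAM49B was at 0.28, 0.85, 0.37 and 0.23 in the WT line, dZF1, dZF10 and dRBR. It passed in dZF1 and dZF10 but not in the WT line or dRBR (limma-voom, adjusted p = 0.14 and 0.236). CCDC26, a long non-coding RNA at 0.899 Mb, rose by 0.40 in CTCF-AID2 cells and had a log2 fold change of -0.41 in the 6 h mean and -0.31 in WT SEM cells, all past the threshold. By line at 6 h, CCDC26 was at -0.83, 0.03, -0.46 and -0.39 in the same order, and did not pass in dZF1 (limma-voom, adjusted p = 0.84). On the other side, TRIB1, a pseudokinase gene at -2.305 Mb, rose by 0.44 in CTCF-AID2 cells, by 0.26 in WT SEM cells and did not pass at 6 h (0.10, adjusted p = 0.2). In the 6 h mean 2 of the 8 rose and 3 fell, against 25.1% and 26.4% of all genes. WT SEM cells without the degron had 3 rises and 3 falls among the 8 (9.34% and 9.55% of all genes). There FAM84B was at 0.45 and SQLE at 0.23, against 0.0015 and -0.31 in CTCF-AID2 cells.

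**Figure D4:**
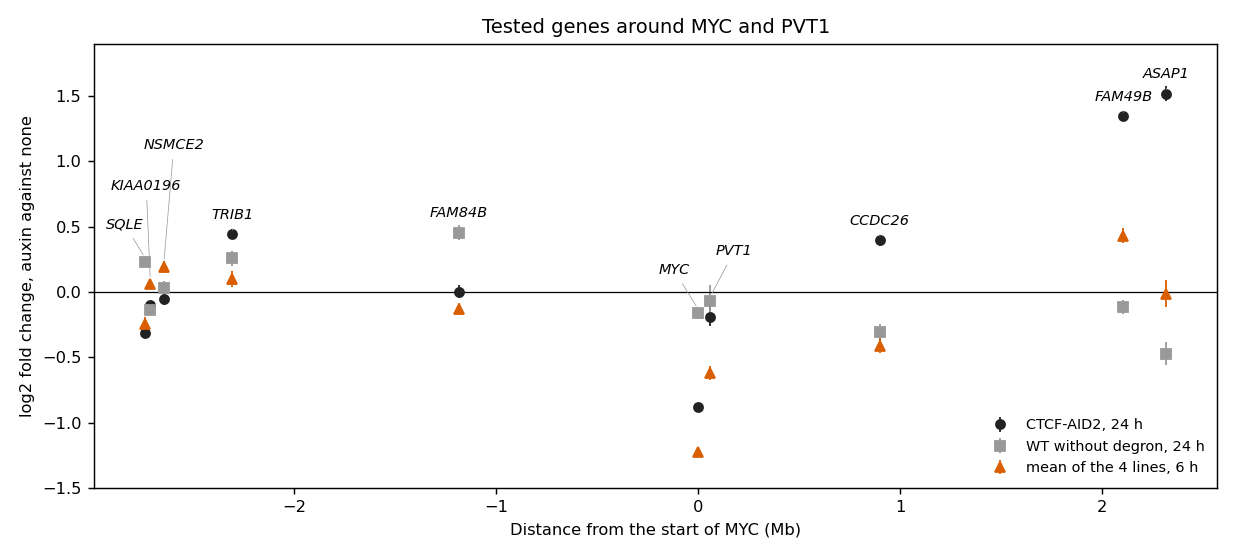
Fitted log2 fold changes (vertical axis, bars for the SE) of the 8 tested neighbours, MYC and PVT1 against the distance of each gene's start from that of MYC in Mb. Black circles are CTCF-AID2 cells at 24 h, grey squares WT SEM cells at 24 h and orange triangles the mean of the 4 lines at 6 h. In CTCF-AID2 cells FAM49B lies at 1.35 and ASAP1 at 1.52, and MYC at -0.88.

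Genes that MYC is known to activate were mostly lower with auxin in CTCF-AID2 cells, where 16 of 19 tested fell and 0 rose by limma-voom (29.5% and 29.2% of all genes), with a median log2 fold change of -0.25 against -0.002 over all genes. TFRC, the transferrin receptor, changed by -0.60, HK2, a hexokinase, by -0.46, FBL, the nucleolar methyltransferase fibrillarin, by -0.45 and LDHA, lactate dehydrogenase, by -0.29, and none of these 4 exceeded an adjusted p of 9.1e-07. In the 6 h mean 12 fell and 3 rose (26.4% and 25.1% of all genes), with a median of -0.17. TERT, the telomerase catalytic subunit, changed by -0.98 (adjusted p = 1.5e-05), FBL by -0.49 and ENO1, an enolase, by -0.34, while ODC1, of polyamine synthesis, rose by 0.24, PKM by 0.25 and EIF4A1 by 0.09. Line by line at 6 h, 0 of the 19 rose and 12 fell in dZF1 (17.1% and 16.4% of all genes), 1 rose and 3 fell in dZF10 (8.88% and 9.24%), 1 rose and 2 fell in dRBR (4.81% and 5.68%), and 3 rose and 2 fell in the WT line (6.45% and 7.21%). FBL passed by line only in dZF1. WT SEM cells without the degron also had 7 falls and 2 rises (9.55% and 9.34% of all genes), with a median of -0.12. There LDHA changed by -0.39 and SRM, of spermidine synthesis, by -0.44, against -0.29 and -0.45 in CTCF-AID2 cells. These counts were not compared with other lists.

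Genes that MYC is known to repress did not move 1 way. In CTCF-AID2 cells 4 of 8 tested rose (29.2% of all genes): FTH1, ferritin heavy chain, by 0.34, NDRG1 by 0.27, CDKN1B, the cell cycle inhibitor p27, by 0.17 and GADD45B by 0.13, the last with an adjusted p at the threshold itself (0.05, limma-voom). CEBPA, a myeloid transcription factor, changed by -0.59 and CDKN1A, the inhibitor p21, by -0.17, the 2 falls among the 8 (29.5% of all genes). In the 6 h mean 2 of 9 rose (25.1% of all genes), CDKN1B by 0.53 and CDKN2B by 0.58. In that mean 4 fell (26.4% of all genes), NDRG2 by 0.76, NDRG1 by 0.41, GADD45B by 0.27 and CDKN1A by 0.23, against the direction that the list's name gives. By line NDRG1 passed in all 4 lines, and CDKN1A only in dZF1. The median was 0.08 at 24 h and -0.23 at 6 h. WT SEM cells had 3 rises and 0 falls among 8 (9.34% and 9.55% of all genes).

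Regulators and partners of the network changed in both directions. In CTCF-AID2 cells, where 29.2% of all genes rose and 29.5% fell, 8 of 16 genes for turnover of MYC protein rose and 2 fell. SKP2, a ubiquitin ligase subunit, rose by 0.68 (adjusted p = 2.06e-10), as did the kinases PIM1 and GSK3B (0.32 and 0.30), while the deubiquitinase USP36 changed by -0.35. In the 6 h mean 5 rose and 3 fell (25.1% and 26.4% of all genes), with SKP2 at 0.16 and PIM1 at -0.29. By line SKP2 passed only in dZF1, and PIM1 in dZF10 and dRBR. In WT SEM cells 2 rose and 4 fell (9.34% and 9.55% of all genes), with SKP2 at -0.18. Of 17 MYC cofactors 7 rose and 6 fell at 24 h, and 3 rose and 10 fell at 6 h (25.1% and 26.4% of all genes). RUVBL1 and RUVBL2, ATPases of chromatin complexes, changed by -0.36 and -0.25 at 24 h. BPTF, a nucleosome remodelling subunit, and CDK9, the kinase of elongation, rose at 24 h (0.28 and 0.23) and fell in the 6 h mean (-0.27 and -0.18). By line at 6 h BPTF passed in the WT line and dZF10, and CDK9 in none. Of the 17, 0 rose and 1 fell in the WT line (6.45% and 7.21% of all genes). In dZF1 2 rose and 4 fell (17.1% and 16.4%), in dZF10 0 and 1 (8.88% and 9.24%), and in dRBR 0 and 0 (4.81% and 5.68%). The 24 h and 6 h sets are separate fits of different lines, and a change between them was not tested. In cells without the degron 3 cofactors fell and 0 rose (9.55% and 9.34% of all genes).

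The 16 genes of the SIN3 corepressor, which MXD proteins and MNT recruit, had 5 rises and 3 falls both in CTCF-AID2 cells (29.2% and 29.5% of all genes) and in the 6 h mean (25.1% and 26.4%), which is near those shares. At 24 h ARID4B rose by 0.35, and SAP30, SAP18 and BRMS1L changed by -0.29, -0.19 and -0.35. There were 2 falls and 0 rises in WT SEM cells (9.55% and 9.34% of all genes). Of 11 genes of the MGA complex PRC1.6, 2 rose and 4 fell in CTCF-AID2 cells at 24 h (29.2% and 29.5% of all genes). In the 6 h mean 6 rose and 2 fell (25.1% and 26.4%). TFDP2, the dimer partner of E2F6, changed by -0.34, -0.32 and -0.23 in CTCF-AID2 cells, WT SEM cells and the 6 h mean, and CBX1, a heterochromatin protein, by 0.15, -0.02 and 0.27. L3MBTL2 and PCGF6, subunits of the complex, were at -0.20 each in CTCF-AID2 cells. Without the degron there was 1 rise and 3 falls (9.34% and 9.55% of all genes).

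On the MLX side, 2 of 5 listed MYC paralogs and Mondo genes were tested. MYCL, a MYC paralog, rose by 0.43 in CTCF-AID2 cells (adjusted p = 0.000721) and was at -0.40 in the 6 h mean (adjusted p = 0.00106). MLXIP, which encodes the Mondo partner of MLX, rose by 0.35 at 24 h and was at -0.40 in the 6 h mean (adjusted p = 3.7e-05 and 0.00586). Neither passed in WT SEM cells. By line at 6 h, MYCL passed only in dZF1 (-0.59) and MLXIP in no line (limma-voom, adjusted p = 0.0747 to 0.488). The 24 h and 6 h values were not tested against each other. The glucose-responsive Mondo-MLX targets TXNIP, which restrains glucose uptake, and ARRDC4 rose by 0.84 and 0.76 in the 6 h mean. At 24 h TXNIP rose by 0.27 in CTCF-AID2 cells and by 0.34 in WT SEM cells, whereas ARRDC4 changed by -0.30 and 0.50.

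**Figure D5:**
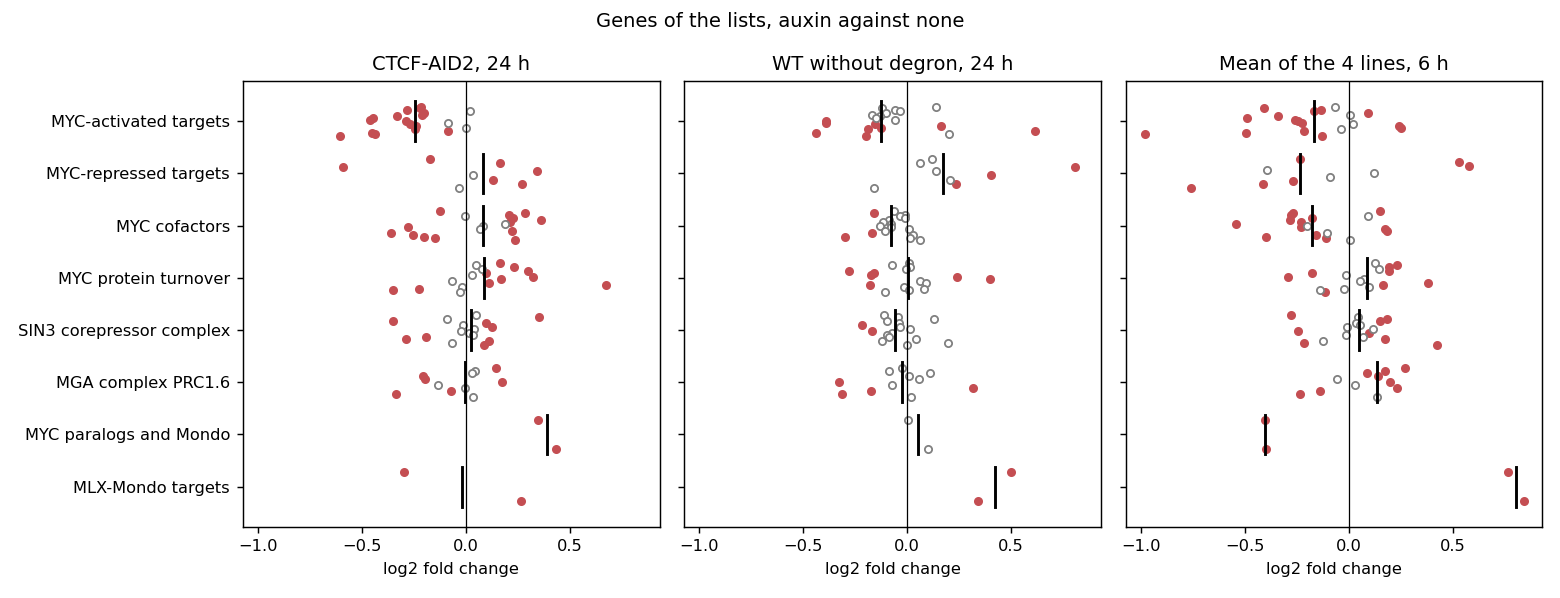
Each point is a tested gene of the list named on the vertical axis, placed by its log2 fold change of auxin against none (horizontal axis, common to the panels). Red points passed an adjusted p of 0.05, open grey points did not, and black bars are list medians. The MYC-activated targets have medians of -0.25, -0.12 and -0.17 in the 3 panels.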

How the data were processed

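RNA-seq of 28 SEM libraries was analysed from the deposited files. By the submitters' processing notes and the methods, the authors used Trim Galore 0.6.3 for trimming, STAR 2.7.9a for alignment to hg19 and RSEM 1.3.1 with Gencode genes for quantification. The deposited expected counts are RSEM estimates without normalization, and the deposited TPM values are RSEM's own, scaled by length and library. The library kit is a 3′ kit in the labels but the methods speak of total stranded RNA-seq, and the use of strand in counting is not stated. Whole-series matrices repeat the 6 h libraries and were left aside.

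Counts were rounded to whole numbers. Spike-in entries (92) held 0 counts and were left out. A single fit per set was made in limma 3.58.1 (voom, TMM factors of 0.971 to 1.017 from edgeR 4.0.16, R 4.3.3), with a mean per group, on genes that exceeded a CPM of 1 in any of its libraries (13973 at 24 h and 13902 at 6 h). P-values were two-sided and adjusted by Benjamini-Hochberg over all genes tested, and "passed", "rose" and "fell" mean an adjusted p of at most 0.05. No fold threshold was used. The depth of 25.8 to 60.7 M counts gave every member at least 133 counts per library, so counting error is largest for MXD1. Groups came from the labels. The fit was tested on simulated data. Alternatives were edgeR's quasi-likelihood test, DESeq2 1.42.0, other scaling factors, other filters, a replicate term, only the groups compared, each library left out in turn and, chosen after seeing the data, both dZF1 auxin libraries left out.

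The members and gene lists were chosen with earlier results of these data known. Named genes are the members, the 4 genes per list with the smallest adjusted p in CTCF-AID2 cells, and the 5 genes nearest to MYC and to PVT1 in their 6 auxin effects. Other genes of the lists named here were chosen after their values were seen. Positions are from a GENCODE annotation lifted to GRCh37, and promoter windows are RefSeq's on GRCh38.p14.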

Additional observations from a re-analysis of the deposited data

Results flagged for a closer look

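The effects of auxin at 24 h differed between CTCF-AID2 and WT SEM cells, by a test of the difference itself, for 4 of 10 members: MYC (log2 difference -0.72), MXI1 (-0.59), MXD1 (-0.46) and MXD3 (0.55). Over all genes tested, 40.2% differed in the same way, and line, agent and processing cannot be told apart in this contrast. The difference passed for all 4 members under every alternative run. One library stood far from the other 3 of its group: MGA in CTCF-AID2 cells with auxin was at 145 CPM in 1 library, while the group reached 156 CPM. Members were examined in 20 groups of 4 libraries, and chance gives about 1 such library in 20 groups.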

How the results depend on the processing

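The number of members passing stayed within 1.5 times its value under edgeR, RLE factors and the stricter filter in each comparison. In WT SEM cells it went from 4 to 2 with no filter and to 1 with the replicate number as a block. The share of all genes passing went from 18.9% to 5.87% and 13.2% in these fits. For dZF1 minus the WT line the number of members went from 0 to 1 with DESeq2, where 401 of 10128 genes passed. In dZF1 it went from 4 to 0 with only the groups compared, where 2 of 13565 genes passed. With 1 library left out, members passing ranged from 7 to 8 in CTCF-AID2 cells, 1 to 4 in WT SEM cells, 2 to 4 in the WT line, 4 to 7 in dZF1, 2 to 6 in dZF10, 1 to 6 in dRBR, 5 to 9 in the 6 h mean and 0 to 6 in dZF1 minus the WT line. A lone library in a group was assumed to vary like the other groups. The share of all genes passing also changed between these fits, so the ranges are not read as results about the members. MAX in dZF1 was 0.00 and became -0.20 (limma-voom, adjusted p = 0.0496) without auxin replicate 2 and 0.18 (adjusted p = 0.0245) without auxin replicate 1. Without both dZF1 auxin libraries, 8 members passed in the mean of 3 lines, as did 52.8% of all genes.

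Over all genes, dZF1 minus the WT line had 46 calls, against 401 with DESeq2, 12 with no filter, 18 with the replicate block and 0 with only the groups compared. With only those groups the WT line had 3462 calls against 1899, and dRBR 2645 against 1459; with no filter they had 1231 and 907. Samples with the same replicate number deviated together (correlation above 0.1) in 9 of 28 pairs of groups at 6 h. Between auxin and none of 1 line the correlation was 0.21 in the WT line, 0.27 in dZF10, 0.19 in dRBR and -0.14 in dZF1. A batch shared by replicate number within a line is therefore not excluded. The numbers were not taken as a pairing in the main fits, and the replicate block was run as an alternative. The block lost the calls of MYC, MXD3 and MNT in WT SEM cells and of MAX in CTCF-AID2 cells (adjusted p = 0.0605), and lowered the calls over all genes from 8201 to 7766, 2640 to 1845 and 5615 to 4973 in CTCF-AID2 cells, WT SEM cells and their difference. Depth limits MXD1 most, and 2 libraries a group limit every 6 h line.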

Other observations

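Some members differed more on the TPM than on the CPM scale between the 2 dZF1 libraries with auxin. MAX was at 11.1 and 28.3 TPM and at 45.3 and 59.6 CPM, and MGA at 8.31 and 14.9 TPM and at 151 and 164 CPM. Untreated levels in the 24 h set, set side by side without a test, were 66.1 ± 6.55 TPM for MYC in CTCF-AID2 cells and 37.5 ± 5.06 TPM in WT SEM cells, 8.62 ± 0.602 and 4.16 ± 0.842 TPM for MXD3, and 2.49 ± 0.185 and 0.940 ± 0.0849 TPM for MXD4.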
